A study of Homo sapiens with 9 samples.

Results

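The nuclear genes for subunits of the oxidative phosphorylation machinery were examined in H69 cholangiocytes, an immortalized line of human bile duct epithelial cells. Members were protein-coding nuclear genes chosen, and assigned to a complex, by symbol alone. The symbols were NDUFA, NDUFB, NDUFC, NDUFS or NDUFV plus a number for complex I, SDHA to SDHD for complex II, and UQCR genes and CYC1 for complex III. They were COX4I, COX5A, COX5B, COX6, COX7 and COX8 genes for complex IV and the genes of the F1, peripheral stalk and membrane parts for complex V. The rule gave 83 of the 61541 genes in the count tables, with 37 members in complex I, 4 in complex II, 10 in complex III, 17 in complex IV and 15 in complex V. Of these, 75 had enough counts to be tested, among 15997 tested genes in all.

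The cells carried no labelled mutation. One group received 0.25 µg/cm2 recombinant human laminin 511-E8, an integrin-binding fragment of a basement membrane protein, for 48 hours. In another group acetazolamide, which inhibits carbonic anhydrases, was given at 10 µM for 48 hours, and the control group received 10 µl DMSO, the solvent, to balance the vehicle. An amount of DMSO is listed for the control group only, so that laminin 511-E8 and control cells may differ in it too. All cells were grown to confluency before treatment and the medium was refreshed after 24 hours. Each group had 3 libraries of poly(A)-selected RNA, described as biological replicates of the same line, so that the spread between them is that between cultures of 1 line.

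Oxidative phosphorylation takes place in the inner mitochondrial membrane. Complexes I and II pass electrons from NADH and succinate to ubiquinone, complex III passes them on to cytochrome c, and complex IV delivers them to oxygen. Complexes I, III and IV pump protons, and complex V, the ATP synthase, uses the returning protons to make ATP. Most subunits are encoded in the nucleus, and complex II wholly so, whereas the others also hold subunits encoded in the mitochondrial genome. NRF-1, the ETS-family factor GABP and YY1 are the factors best known for binding promoters of the nuclear genes.

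Short promoter stretches are shown for the members whose RefSeq promoter window held both an NRF-1 and an ETS motif. Each of these motifs was in a minority of member windows, but in a larger share than among tested genes. The windows ran from 250 bases before to 50 bases after a gene start (RefSeq, GRCh38.p14), and 66 of the 83 members had at least 1 of them, 79 windows in all. Capitals mark the motif CGCATGCG (NRF-1) and the motif CCGGAAG or its reverse complement (ETS).
ATP5ME (membrane part of complex V), chr4:674257-674363, minus strand: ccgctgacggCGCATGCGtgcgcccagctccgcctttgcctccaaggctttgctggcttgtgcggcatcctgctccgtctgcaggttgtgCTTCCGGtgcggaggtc
SDHD (membrane anchor of complex II), chr11:112086754-112086812, plus strand: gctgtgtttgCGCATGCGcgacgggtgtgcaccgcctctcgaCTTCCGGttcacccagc
COX6A1 (accessory subunit of complex IV), chr12:120437884-120438113, plus strand: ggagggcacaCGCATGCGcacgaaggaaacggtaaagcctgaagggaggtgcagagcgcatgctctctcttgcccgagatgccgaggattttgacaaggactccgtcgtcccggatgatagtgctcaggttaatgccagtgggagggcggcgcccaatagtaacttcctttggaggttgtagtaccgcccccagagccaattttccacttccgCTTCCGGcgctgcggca
ATP5PF (peripheral stalk of complex V), chr21:25735068-25735183, minus strand: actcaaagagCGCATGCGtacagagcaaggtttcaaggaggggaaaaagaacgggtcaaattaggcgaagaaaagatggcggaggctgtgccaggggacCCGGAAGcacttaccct

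The motifs were searched on both strands as exact letters. CGCATGCG was in 11 of the 79 member windows (13.9%), against 3.38% of the 15449 windows of tested genes and 2.02% of all 35116 windows. The 11 members were ATP5F1C, ATP5MC2, ATP5ME, ATP5PF, COX6A1, NDUFA5, NDUFA8, NDUFB4, NDUFS6, NDUFS7 and SDHD. CCGGAAG was in 26.6% of member windows, against 16.9% of those of tested genes and 10.3% of all. The YY1 motif AAGATGG was in 24.1% of member windows, against 6.92% and 5.84%, and in ATP5PF it lies between the 2 capitalized motifs. The SP1 motif GGGGCGG was in 31.6% of member windows, against 47.0% of those of tested genes and 30.8% of all. At least 1 of the NRF-1, ETS and YY1 motifs was in 40 of the 79 member windows (50.6%), against 24.7% and 16.8%. A match to these letters is a description of the window and was not tied to any factor in these cells.

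Levels are given as CPM, the TMM-scaled share of a gene in its library. The libraries held between 12529867 and 39518899 counts, of which members took 0.512% to 0.627%. Genes of the mitochondrial genome took 9.43% to 11.8% of the counts in 8 libraries and 16.2% in control replicate 2, which therefore stood apart. Transcripts of KRT7, KRT19, EPCAM and CDH1, epithelial markers of cholangiocytes, were abundant and SOX9 was low at 2.47 to 5.40 CPM. The 7 cholangiocyte markers summed to 2874 to 3056 CPM in laminin 511-E8 libraries and 3310 to 3871 CPM in acetazolamide libraries, against 3408 to 3831 CPM in control libraries, so that laminin 511-E8 libraries were below both other groups. The part of this in the results below was not tested. Summed over each list, the 4 hepatocyte markers stayed at or under 0.230 CPM and the 4 leukocyte markers at or under 0.0915 CPM in every library. Of the fibroblast markers, COL1A1 was present at 33.6 to 60.9 CPM and COL3A1 was listed at 0. Intervals and floors cover counting error or the spread between libraries only. In bulk RNA, fewer cells of a type and less RNA per cell cannot be told apart.

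Members were well expressed, and their summed level ran only from 5480 to 6158 CPM over the 9 libraries. The summed level of the 83 members was 5862, 6055 and 5578 CPM in laminin 511-E8 libraries and 6004, 6158 and 6037 CPM in acetazolamide libraries, against 6036, 5480 and 5662 CPM in control libraries. The highest library was an acetazolamide one and the lowest was control replicate 2, and on this scale the values of each treated group overlapped those of control. With plain totals the acetazolamide libraries did not overlap control, at 6163, 6193 and 6251 CPM in acetazolamide libraries, against 5958, 5122 and 5771 CPM in control libraries. The same held when genes of the mitochondrial genome were left out of the totals, at 6903, 6838 and 7084 CPM in acetazolamide libraries, against 6648, 6115 and 6412 CPM in control libraries. Laminin 511-E8 libraries overlapped control under each of these scalings. On the TMM scale, group means were 5832 ± 240, 6066 ± 80.8 and 5726 ± 284 CPM for laminin 511-E8, acetazolamide and control (SD, n = 3 each). The sum carries no test, because the members share libraries. Control replicate 2, the lowest, was also the library with the most mitochondrially encoded RNA, and the part of this in its nuclear sum was not tested.

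Complex V took the most of this total, led by the catalytic head. Its 15 members summed to 2140 ± 95.1 CPM in laminin 511-E8 cells and 2259 ± 55.8 CPM in acetazolamide cells, against 2081 ± 190 CPM in control cells. The 37 members of complex I summed to 1731 ± 64.1 and 1793 ± 55.2 CPM, against 1695 ± 70.9 CPM in control. By its symbol NDUFA4, at a mean of 186 CPM in control, is counted here with complex I, although it is now placed in complex IV. Complex IV summed to 1011 ± 60.5 and 1038 ± 7.83 CPM, against 987 ± 54.8 CPM. Complex III summed to 817 ± 48.4 and 847 ± 41.9 CPM, against 823 ± 63.7 CPM. Complex II, the smallest, summed to 133 ± 17.6 and 129 ± 19.8 CPM, against 140 ± 21.8 CPM in control (SD, n = 3 each throughout). On this scale the libraries of each treated group overlapped those of control in every complex, as the plot of sums by complex shows. With plain totals, and with totals without mitochondrially encoded genes, acetazolamide libraries were all above control libraries in complexes I and V and overlapped them in the other three.

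The 13 subunits encoded in the mitochondrial genome were counted in far larger numbers. They belong to the cores of complexes I, III and IV, in part beside nuclear subunits, and to the membrane part of complex V. Their sum was 81500, 81610 and 90190 CPM in laminin 511-E8 libraries and 76870, 68740 and 84060 CPM in acetazolamide libraries, against 79340, 134800 and 68760 CPM in control libraries. The high value was that of control replicate 2 alone. Counts of mitochondrially encoded subunits were 13.5 to 16.2 times those of nuclear members in laminin 511-E8 libraries and 11.2 to 13.9 times in acetazolamide libraries, against 13.1, 24.6 and 12.2 times in control libraries. The median log2 fold change of the 13 was -0.16 for laminin 511-E8 against control and -0.29 for acetazolamide against control, and none passed the test in any of the 3 comparisons. These directions rest on control replicate 2: without it the medians were 0.23 and 0.07, again with none past the test.

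Level per length was compared in control cells with TPM, the share of a gene after division by its length. The length was that of the longest RefSeq-linked transcript, where a gene had one. The 74 members that reached 10 counts in each control library were ranked among the 13645 genes that did so. They ranked at a median percentile of 91.1, and 40 of them were above the 90th percentile. Their median was 114 TPM, against 17.5 TPM over all these genes. Members were also short, with a median transcript length of 1163 bases against 3173 bases over all genes tested, so that their rank by CPM was lower, at a median percentile of 72.3.

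Within a complex the transcripts were far from equal in level. In complex V, ATP5F1B (the catalytic beta subunit) was highest at 669 TPM, next to ATP5PD (peripheral stalk) at 620 TPM, whereas ATP5F1A (alpha, present in as many copies in the enzyme) was at 189 TPM and ATP5F1C (the rotating gamma subunit) at 230 TPM. ATP5MG, a small membrane subunit, was lowest at 32.2 TPM. In complex IV, COX7B led with 566 TPM, next to COX7C at 438 TPM and COX4I1 at 408 TPM, with COX5B at 223 TPM and COX5A at 149 TPM. In complex III, the small subunit UQCRQ was highest at 389 TPM, CYC1 (cytochrome c1) stood at 145 TPM, UQCRC1 (a core protein) at 134 TPM and UQCRFS1 (the Rieske iron-sulfur protein) at 47.8 TPM. UQCRC2, the other core protein, was lowest at 5.59 TPM. In complex II, SDHD was at 85.3 TPM, SDHB (the iron-sulfur subunit) at 42.3 TPM, SDHA (the flavoprotein) at 13.5 TPM and SDHC at 8.66 TPM. In complex I, the accessory subunit NDUFB9 was highest at 316 TPM, and NDUFA7 and NDUFA13, both accessory, were lowest of the tested members at 2.03 and 2.10 TPM. Transcripts of subunits that stand side by side in 1 enzyme, such as UQCRC1 and UQCRC2, thus differed widely in TPM. These levels depend on the length used. With the union of all annotated exons, ATP5F1B was at 722 TPM. The highest members of complexes I, III and IV were then NDUFS5 (311 TPM), UQCR10 (247 TPM) and COX6B1 (301 TPM). In CPM, which uses no length, ATP5F1A was at 528, 409 and 510 in control cells, against 591, 454 and 570 for ATP5F1B. SDHC was above SDHA in CPM, with control means of 50.9 and 14.2 CPM, unlike their order in TPM.

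The core subunits of complex I, which include those that hold the flavin and the iron-sulfur clusters, were spread over this range. NDUFV1, the flavin-binding subunit, was at 119 TPM and NDUFS8, an iron-sulfur subunit, at 106 TPM. NDUFS7, also an iron-sulfur subunit, was at 20.1 TPM. NDUFV2 was at 6.05 TPM. NDUFS1, the largest core subunit, was at 4.46 TPM with a transcript length of 11819 bases.

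Several low values coincided with copies or neighbours that can take reads. SDHA had 3065 counts over the 9 libraries, whereas the pseudogenes SDHAP1, SDHAP3 and SDHAP4, which resemble it, had 10568, 3745 and 13061 counts. In control cells SDHA was at 14.2 ± 0.531 CPM, SDHAP1 at 48.3 ± 7.33 CPM, SDHAP3 at 14.7 ± 1.30 CPM and SDHAP4 at 62.2 ± 4.09 CPM (SD, n = 3). NDUFV2 had 566 counts and its pseudogene NDUFV2P1 had 916. The levels of both genes are therefore uncertain, and how the counting treated reads with several matches is not given in the sources used here. In all, 187 pseudogenes named after members held 34992 counts, which was 2.76% of the 1267867 counts of the members, and most of these lay in the pseudogenes of SDHA.

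Complex I members at or near 0 counts included genes that a cell with a working complex I is thought to use. NDUFS3, a core subunit, had 5 counts in all 9 libraries, NDUFA3 had 2 and NDUFA6 had 0. A count of 0 allows up to 0.0759 CPM in the deepest library and 0.239 CPM in the shallowest. Genes beside them were likewise listed at or near 0. On chromosome 19, within 100 kb of the start of NDUFA3, TFPT had 0 counts, TSEN34 had 1 and RPS9, a ribosomal protein gene, had 37. On chromosome 22, SMDT1 beside NDUFA6 had 0 counts. On chromosome 11, KBTBD4, which overlaps NDUFS3, had 0 counts and PTPMT1 had 789, whereas CELF1 had 28753. In GENCODE release 29, 19.6% of the exonic bases of NDUFS3 are shared with another gene on the same strand, against 0.0% for NDUFA3 and NDUFA6. These genes are therefore reported as listed at or near 0, and why was not tested.

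NDUFA7 and NDUFA13 were tested but low. NDUFA7 had 112 counts in all, and 32.3% of its exonic bases are shared with another gene on the same strand. NDUFA13, also known as GRIM-19, had 232 counts and shares 21.0%. NDUFA7 ran from 0.242 to 0.823 CPM and NDUFA13 from 0.345 to 1.60 CPM. Other members overlap genes on the opposite strand, such as NDUFA1 with RNF113A (44.5% of its exonic bases on either strand) and NDUFB8 with HIF1AN (48.5%, also counting a gene on its own strand), and without a stated strand setting their reads cannot be told apart.

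Complex IV has tissue-restricted isoforms of several subunits, and H69 cells used the ubiquitous ones. COX4I1 had 1672 to 5653 counts per library, COX6A1 496 to 1547, COX7B 1205 to 4446 and COX8A 300 to 838. Their counterparts COX4I2 (known from lung), COX6A2 (heart and muscle), COX7B2 and COX8C (testis) were listed at 0 counts in all 9 libraries. COX7A1, the heart and muscle isoform, had 2 counts in all, against 23780 counts of COX7A2. COX6B2, best known from testis, was the exception, with 60 to 189 counts in each library and 5.34 TPM in control cells, against 311 TPM of COX6B1. This pattern was the same in all 3 groups. Muscle markers (ACTA1, MYH7, CKM and MB) summed to at most 0.585 CPM in any library.

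UQCRHL, a near copy of the complex III gene UQCRH, was counted at 10.8 TPM in control cells, against 251 TPM of UQCRH, and reads of these 2 genes may not be separable. The 3 genes ATP5MC1, ATP5MC2 and ATP5MC3 encode the same mature ring subunit of complex V with different targeting peptides, and all were used. ATP5MC3 took 45.5% to 55.2% of their counts, ATP5MC2 23.8% to 29.5% and ATP5MC1 20.9% to 25.0%. Per length their order depended on the transcript chosen, at 159, 62.3 and 40.0 TPM for ATP5MC1, ATP5MC2 and ATP5MC3 with the RefSeq-linked transcript and 50.8, 38.1 and 44.1 TPM with all exons.

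No member passed the test in laminin 511-E8 against control. With edgeR's quasi-likelihood test and Benjamini-Hochberg adjustment over all genes, 0 of the 75 members had an adjusted p under 0.05, beside 0 of the 15997 genes tested (0%). At an unadjusted p under 0.05 there were 0 members and 454 genes (2.84%). DESeq2 called 21 genes (0.131%) and limma voom 0, with 0 members in either. The median log2 fold change of the members was 0.03, against -0.003 over all genes tested, and 47 of 75 were above 0. The 95% interval of the fold change lay within 1.5-fold in either direction for 57 members and within 2-fold for 69. A p that misses the threshold does not show that the levels are equal, and these intervals give the changes that the data still allow.

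The members at the ends of the range were low or variable ones. COX6B2 was at 3.68, 6.13 and 3.85 CPM in laminin 511-E8 cells, against 3.29, 3.71 and 4.70 CPM in control cells (log2 fold change 0.25, standard error 0.29). NDUFV2 followed with 0.24 and ATP5PO, a peripheral stalk subunit, with 0.23. At the other end were NDUFS1 (-0.57), SDHD (-0.24) and NDUFA5 (-0.16), an accessory subunit of complex I. The groups overlapped in all of these. Only NDUFA10, an accessory subunit of complex I, had groups that did not overlap, with 101.3, 101.4 and 98.8 CPM in laminin 511-E8 cells, against 98.1, 91.7 and 94.3 CPM in control cells. Its log2 fold change was 0.09 with a 95% interval of -0.13 to 0.30. That is 1 of 75 members higher (1.33%), beside 4.69% of all genes higher without overlap, and 0 members lower, beside 3.96% of all genes.

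Acetazolamide against control likewise gave no member. By the same test 0 of 75 members passed, beside 0 of 15997 genes (0%), and 0 members had an unadjusted p under 0.05, beside 292 genes (1.83%). DESeq2 called 7 genes (0.0438%) and limma voom 0, again with 0 members. The median log2 fold change was 0.08, against 0.005 over all genes, with 59 of 75 members above 0. By complex the medians were 0.10 for complex I, 0.02 for complex II, 0.10 for complex III, 0.10 for complex IV and 0.07 for complex V. The 95% interval lay within 1.5-fold for 51 members and within 2-fold for 69.

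A list of main subunits differed in how closely the data bound their change in acetazolamide cells. It held NDUFS1, NDUFS7, NDUFS8, NDUFV1, NDUFV2, SDHA to SDHD, UQCRC1, UQCRC2, UQCRFS1, CYC1 and ATP5F1A to ATP5F1C. COX4I1, COX5A and COX5B were also on it, although they lie outside the mitochondrially encoded core of complex IV. For 13 of these 19 tested subunits, the 95% interval lay within 1.5-fold in either direction. ATP5F1B was at 593, 582 and 667 CPM in acetazolamide cells, against 591, 454 and 570 CPM in control cells (log2 fold change 0.19, 95% interval -0.09 to 0.46). COX4I1, a regulatory subunit of complex IV, was at 158, 119 and 163 CPM, against 138, 165 and 131 CPM (0.02, -0.32 to 0.36). SDHB was at 21.2, 21.9 and 21.8 CPM, against 22.3, 22.9 and 19.9 CPM (-0.004, -0.26 to 0.25), and UQCRFS1 had a log2 fold change of -0.02 (-0.30 to 0.25). The groups overlapped in these 4 genes. The other 6 listed subunits had intervals that reached past 1.5-fold. These were NDUFS7 (0.12, -0.57 to 0.81), NDUFS8 (0.18, -0.38 to 0.74), NDUFV1 (0.12, -0.34 to 0.59), CYC1 (0.22, -0.31 to 0.76), SDHD (-0.45, -1.39 to 0.49) and NDUFS1, described below with the lowest fold change.

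The highest log2 fold changes in this comparison were those of NDUFA13 (0.48, standard error 0.42), ATP5PO (0.40, 0.21) and COX6A1 (0.35, 0.18). COX6A1 was at 42.6, 57.5 and 50.9 CPM in acetazolamide cells, against 48.6, 30.3 and 38.8 CPM in control cells, with control replicate 1 inside the acetazolamide range. Groups did not overlap for 5 members that were higher in acetazolamide cells (6.67%), beside 3.21% of all genes. These were NDUFA8, NDUFB4 and NDUFS5, accessory subunits of complex I, with UQCRQ and ATP5F1A. After the GC correction described below, only NDUFS5 of these stayed without overlap. UQCRQ was at 82.3, 91.5 and 90.3 CPM in acetazolamide cells, against 81.7, 66.3 and 72.3 CPM in control cells (log2 fold change 0.26, 95% interval -0.04 to 0.56). ATP5F1A was at 530, 556 and 529 CPM, against 528, 409 and 510 CPM, so that the nearest libraries of the groups differed by less than 1%.

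NDUFS1 was the 1 member lower without overlap in acetazolamide cells (1.33%), beside 2.1% of all genes. It was at 10.0, 10.9 and 7.08 CPM in acetazolamide cells, against 13.1, 27.5 and 29.7 CPM in control cells. The log2 fold change, the lowest of all tested members, was -1.29 (standard error 0.59, 95% interval -2.60 to 0.02, adjusted p = 0.9998 with edgeR's quasi-likelihood test). In laminin 511-E8 cells it was at 7.19, 33.2 and 6.57 CPM, so that 1 library of that group was above all control libraries and the other two were close to the lowest acetazolamide library. NDUFS1 had the widest range of all tested members, 5.05 times between the highest and the lowest library, and its dispersion was above that of 98.6% of all genes tested. The range was as wide, 6.07 times, after a correction for GC content. The next lowest log2 fold changes in acetazolamide against control were those of SDHD (-0.45, standard error 0.42) and NDUFA5 (-0.36, 0.35). NDUFA5 was at 47.9, 83.1 and 31.0 CPM in acetazolamide cells, against 71.2, 73.3 and 63.3 CPM in control cells, and the groups of both genes overlapped.

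Laminin 511-E8 against acetazolamide also gave 0 members of 75, beside 0 of 15997 genes (0%), with 0 members and 374 genes (2.34%) at an unadjusted p under 0.05. DESeq2 called 19 genes (0.129%) and limma voom 0, with 0 members. The median log2 fold change of the members was -0.06, against 0.002 over all genes, and 20 of 75 were above 0. The ends of the range were NDUFS1 (0.72), NDUFV2 (0.22) and SDHD (0.21), and NDUFA13 (-0.27), ATP5F1D (-0.25, the delta subunit of complex V) and NDUFB11 (-0.24, an accessory subunit of complex I). Groups did not overlap for NDUFS5 and ATP5F1A, both lower in laminin 511-E8 cells (2.67% of members, beside 3.11% of all genes). ATP5F1A was at 521, 520 and 479 CPM in laminin 511-E8 cells, against 530, 556 and 529 CPM in acetazolamide cells. No member was higher without overlap, beside 3.01% of all genes. The 3 comparisons share libraries in pairs, so that their values are not independent of each other.

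**Figure D1:**
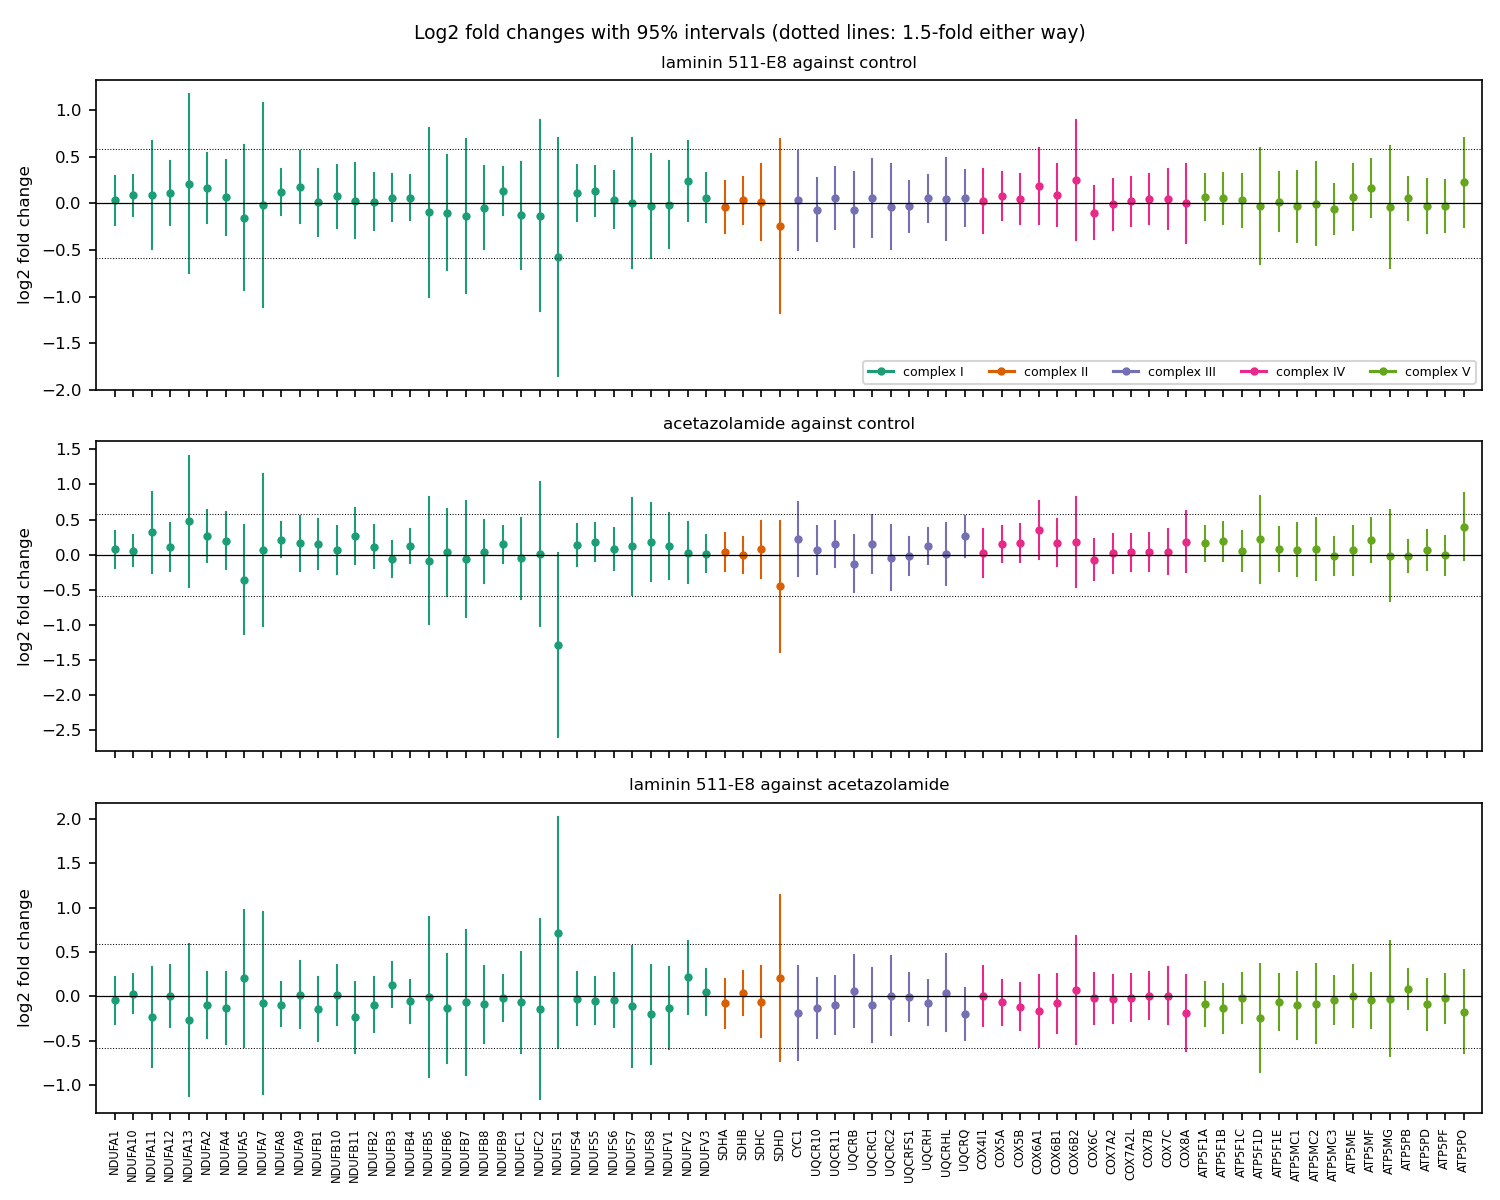
Log2 fold change of 74 of the 75 tested members (points) with its 95% interval (lines), coloured by complex, for the 3 comparisons from top to bottom, with dotted lines at 1.5-fold either way. Every interval shown includes 0, and the 3 widest in each comparison belong to NDUFS1, NDUFA7 and NDUFC2.

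Members differed in their range over all 9 libraries, which holds the spread both within and between groups. For 40 of the 75, the highest library was under 1.5 times the lowest, and for 15 it was over 2 times. The median ratio was 1.47 over all 75 members, against 1.72 over all tested genes. It was 1.51 over the 4233 tested genes within the interquartile range of member levels, which leaves out the levels of the lowest and highest members. NDUFA10 was the steadiest at 1.14, next to SDHB at 1.15 and ATP5PB, a peripheral stalk subunit, at 1.19. At the other end, after NDUFS1, were NDUFC2 (3.73), SDHD (3.59) and NDUFB5 (3.37), apart from the low NDUFA13 and NDUFA7. SDHD was at 56.9, 25.0 and 54.1 CPM in laminin 511-E8 cells and 39.5, 60.7 and 17.0 CPM in acetazolamide cells, against 61.2, 42.5 and 57.1 CPM in control cells. NDUFC2, an accessory subunit of complex I, was at 19.2, 8.23 and 19.6 CPM and at 12.6, 30.7 and 8.49 CPM, against 21.8, 14.7 and 14.7 CPM. Both were thus lowest in laminin 511-E8 replicate 2 and acetazolamide replicate 3, and NDUFC2 was highest in acetazolamide replicate 2.

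**Figure D2:**
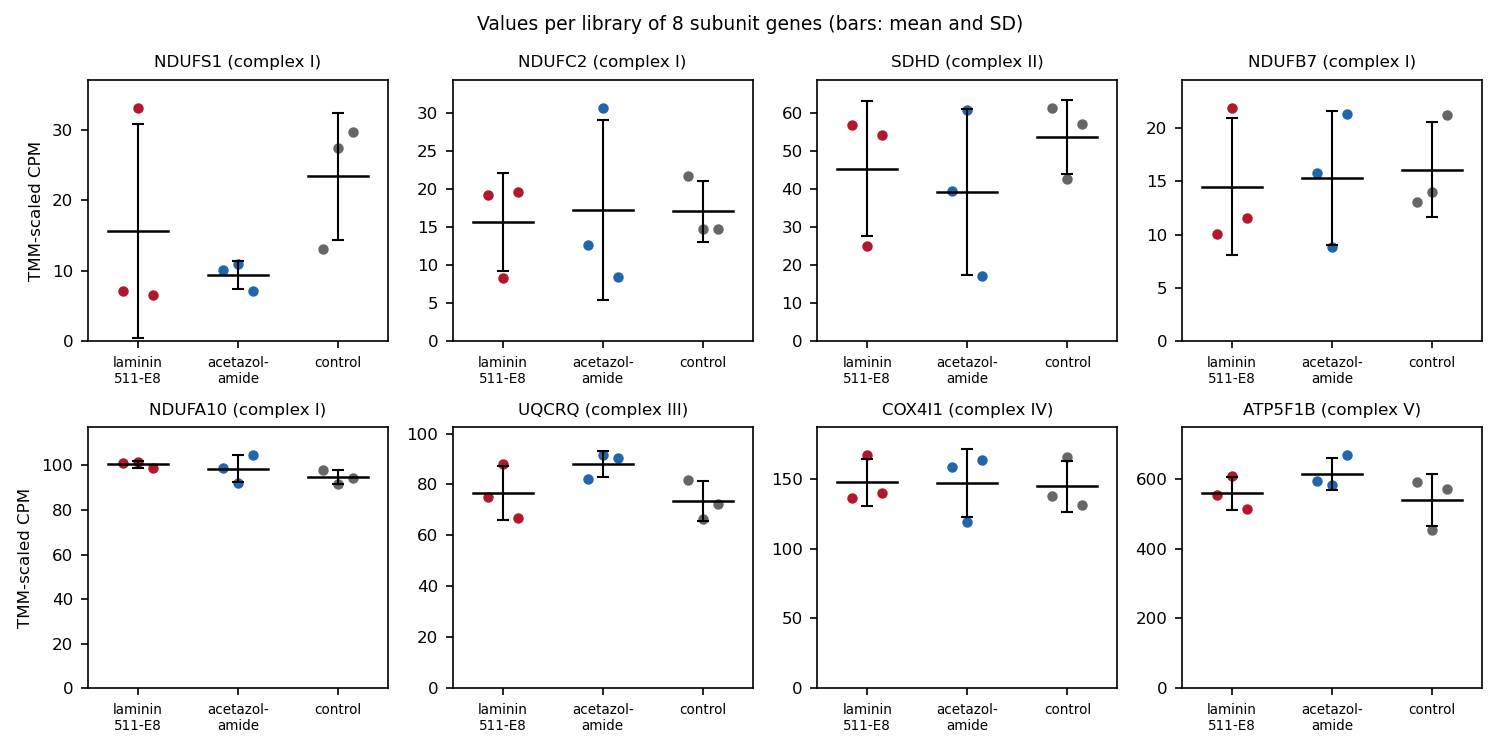
TMM-scaled CPM (y axis) of 8 members in each library, with laminin 511-E8, acetazolamide and control from left to right, 3 points each, and the mean with its SD as a bar. NDUFC2, SDHD and NDUFB7 differ more within groups than between them, whereas NDUFA10 stays between 91.7 and 104.6 CPM in all 9 libraries. NDUFS1 runs from 6.57 to 33.2 CPM within laminin 511-E8, while its acetazolamide libraries all lie below its control libraries.

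GC content went with this variation. Across the 75 tested members, the deviation of a member from its mean over the 9 libraries had a Pearson correlation with GC content of 0.70 in acetazolamide replicate 3 and 0.54 in laminin 511-E8 replicate 2, but -0.59 in acetazolamide replicate 2 and -0.58 in laminin 511-E8 replicate 1. These are correlations across genes of single libraries, given as a description. In all 9 libraries the correlation over all 15737 tested genes with a known GC content had the same sign, between -0.65 and 0.74. The 17 members with a GC content of 55% or more, such as NDUFB7, NDUFS8, NDUFV1 and CYC1, were at a median log2 deviation of 0.39 in acetazolamide replicate 3 and -0.26 in acetazolamide replicate 2. The 28 members under 45%, such as NDUFA5, SDHD and ATP5MG, were at -0.17 and 0.17 in these libraries. NDUFB7, the most GC-rich tested member at 65.0%, was at 10.1, 21.9 and 11.6 CPM in laminin 511-E8 cells and 15.8, 8.81 and 21.4 CPM in acetazolamide cells, against 13.1, 14.0 and 21.2 CPM in control cells.

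**Figure D3:**
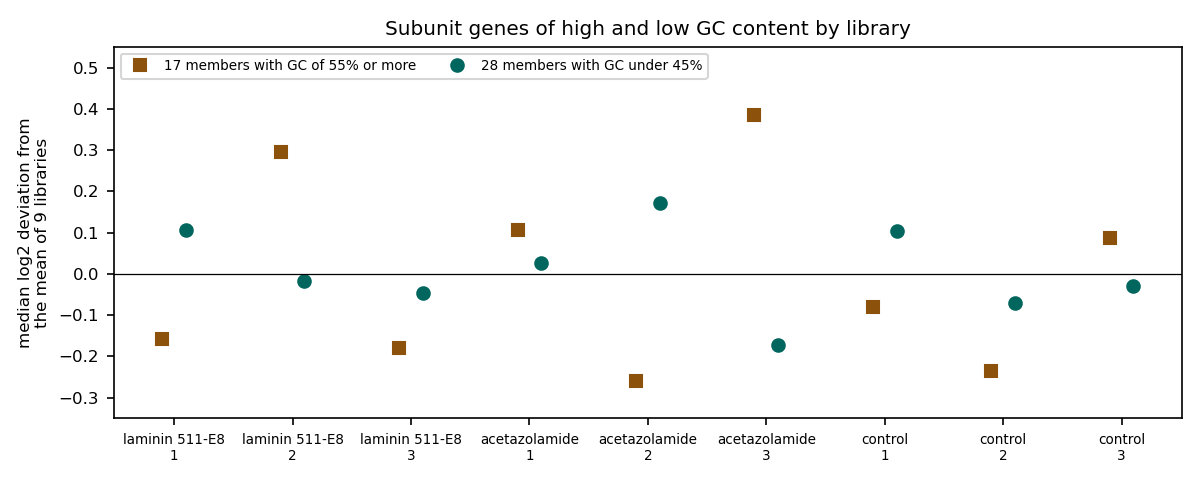
Median log2 deviation from the mean of all 9 libraries (y axis) of the 17 members with a GC content of 55% or more (squares) and the 28 members under 45% (circles), for each library. The squares run from -0.26 in acetazolamide replicate 2 to 0.39 in acetazolamide replicate 3, with libraries of 1 group at both ends.

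After the GC trend was removed in each library, members over 2 times apart between libraries numbered 8, and the median ratio was 1.41. Genes called by edgeR then numbered 44 in laminin 511-E8 against control (0.28%), 0 in acetazolamide against control (0%) and 27 in laminin 511-E8 against acetazolamide (0.172%), with 0 members in each. In acetazolamide against control, 3 members had an unadjusted p under 0.05 with this correction, namely ATP5PO (log2 fold change 0.40), NDUFB1 (0.25) and COX6A1 (0.45), and their adjusted p were all at or above 0.931. NDUFB1 is an accessory subunit of complex I. Which members had groups without overlap also depended on this correction. NDUFS5 and NDUFS1 stayed apart in acetazolamide against control, whereas NDUFA8, NDUFB4, UQCRQ and ATP5F1A overlapped. NDUFA10 then overlapped in laminin 511-E8 against control, as did NDUFS5 and ATP5F1A in laminin 511-E8 against acetazolamide. Other members stood apart only then, such as NDUFB1 and NDUFS4 in acetazolamide against control and CYC1 in laminin 511-E8 against acetazolamide.

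Assembly factors and other genes of the chain likewise gave no call, although some varied widely between libraries. COX11, an assembly factor, was at 73.8, 108.9 and 52.9 CPM in acetazolamide cells. None of the 57 tested assembly factors, which build the complexes, passed in any comparison, and their median log2 fold changes lay between 0.009 and 0.015. In laminin 511-E8 against control, PET100, a complex IV assembly factor, was the 1 with an unadjusted p under 0.05, at 4.95, 4.80 and 4.11 CPM in laminin 511-E8 cells against 4.14, 2.96 and 2.74 CPM in control cells (log2 fold change 0.43, standard error 0.19). None of the 5 tested other chain genes passed either. CYCS, cytochrome c, was at 375, 252 and 412 CPM in laminin 511-E8 cells and 317, 438 and 237 CPM in acetazolamide cells, against 410, 376 and 382 CPM in control cells. ATP5IF1, the inhibitor of the ATP synthase, was listed at 0 counts in all 9 libraries.

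Of the 12 tested regulators, PPARGC1A, a coactivator of mitochondrial genes, stood apart in laminin 511-E8 cells. It was at 16.5, 14.8 and 19.4 CPM in laminin 511-E8 cells and 23.7, 31.8 and 22.9 CPM in acetazolamide cells, against 27.6, 30.8 and 23.4 CPM in control cells. Every laminin 511-E8 library was below every library of the other two groups. The log2 fold change was -0.69 (standard error 0.18) against control and -0.62 against acetazolamide, and neither passed edgeR's quasi-likelihood test (adjusted p = 1.0 and 0.9999). With the GC trend removed both passed (log2 fold changes -0.65 and -0.68, adjusted p = 0.0172 and 0.0169), and with DESeq2 neither did (adjusted p = 0.200 and 0.514). Over all alternatives its adjusted p ran from 0.0172 to 1.0 against control and from 0.0169 to 1.0 against acetazolamide. The median log2 fold change of the tested members in laminin 511-E8 against control was 0.03 without and 0.01 with the GC correction. The genes of the promoter-binding factors showed log2 fold changes in laminin 511-E8 against control of 0.11 for NRF1, -0.10 for GABPA and -0.15 for YY1, and in acetazolamide against control of 0.09, -0.30 and -0.10. None of these passed the test.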

How the data were processed

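The values used were raw counts of reads per gene, deposited by the authors for 9 libraries. Per the submitters' processing notes, reads were checked with FastQC (0.11.9) and trimmed with Trimmomatic (0.39), and HISAT2 (2.2.1) and HTSeq (0.11.0) were used with the build GRCh38. Not given in the sources used here are the release of the gene annotation, whether strand was used in counting and how reads with several matches were handled. All columns were matched to samples, and rows that name no gene numbered 0.

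Of 61541 genes, symbols were taken from a table of gene names for 61369 and from GENCODE release 29 for 159. The name rule found 172 genes, of which 88 were annotated as pseudogenes and 1 had no annotated type. Lengths, GC content and exon overlaps came from GENCODE release 29 and promoters from RefSeq (GRCh38.p14).

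The counts were fitted over all 9 libraries with edgeR 4.0.16 (R 4.3.3; filterByExpr, TMM, robust quasi-likelihood), with adjustment over all tested genes and a threshold of 0.05. CPM were counts over TMM-scaled totals. DESeq2 1.42.0, limma voom 3.58.1, other scalings, filters, a GC correction, a gene length correction and leaving out each library were the alternatives. The fit was also run on simulated counts that had the same dispersion for all genes and no GC trend. That run cannot tell how the fit performs on these libraries, where both differ. No library appeared to repeat another of its group, since counts of libraries within a group had a chi-square of 4.77 to 90.8 per degree of freedom. Libraries of different groups were not compared in this way.

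Named genes were any member past the threshold, the 3 highest and 3 lowest fold changes per comparison, and the highest and lowest level per complex. The isoform pairs, the listed main subunits, members under 1 CPM, and regulators were named too. NDUFA10, the other members without overlap, the most and least variable members and PET100 were named after their values were seen. The members and lists were chosen with earlier results of these data known. Results for 1 member and for a few other genes are not reported here.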

Additional observations from a re-analysis of the deposited data

How the results depend on the processing

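The count of members called was 0 in every comparison and under every alternative run, including an adjusted p of 0.01. The count of all genes called, 0 in each comparison, moved to 21, 7 and 19 with DESeq2 and to 44, 0 and 27 with the GC correction, for laminin 511-E8 against control, acetazolamide against control and laminin 511-E8 against acetazolamide. It stayed at 0 under the other alternatives. The cause was not tested. The median log2 fold change of the members lay between -0.01 and 0.09 for laminin 511-E8 against control, between 0.05 and 0.11 for acetazolamide against control and between -0.11 and -0.01 for laminin 511-E8 against acetazolamide when single libraries were left out. It moved by over 1.5 times with upper-quartile normalization (0.06 and 0.13 for laminin 511-E8 and acetazolamide against control), without a filter on low counts (0.02, 0.04 and -0.04 in the 3 comparisons) and, for laminin 511-E8 against control, with the GC correction (0.01), the GC correction with the replicate number as a block (0.02) and the gene length correction (0.02). Its sign turned once, without laminin 511-E8 replicate 2 (-0.01), and without control replicate 2, the library rich in mitochondrially encoded RNA, it was 0.00 and 0.09 against control. Of the members and other genes named with a fold change, PPARGC1A alone changed its call, with the GC correction (adjusted p = 0.0172 against control and 0.0169 against acetazolamide, edgeR). Signs were less steady: over the 51 genes so named and all alternatives, 121, 96 and 85 of 1070 fold changes turned sign in laminin 511-E8 against control, acetazolamide against control and laminin 511-E8 against acetazolamide, none of them of a called gene. For the mitochondrially encoded subunits the same alternatives were chosen after seeing the data, and without control replicate 2 their median was 0.23 and 0.07 against control, in place of -0.16 and -0.29. Correlations of same-numbered deviations ran from -0.75 to 0.32, so that no steady pairing by replicate number was seen. The deviations also carry the GC trend of each library, so that they cannot exclude that same-numbered samples shared a batch. With the replicate number as a block the medians were 0.04, 0.08 and -0.06 and 0 genes were called, also with the GC correction. The summed level of the members moved by more than 1 SD between libraries to 6581, 6942 and 6392 CPM for laminin 511-E8, acetazolamide and control when mitochondrially encoded genes were left out of the totals, and for acetazolamide to 6203 CPM with plain totals and 6234 CPM with pseudogenes added. The median level of tested members in control cells was 75.0 TPM over all exons and 110 TPM over the RefSeq-linked transcript, and adding pseudogenes took SDHA to 139 CPM and NDUFV2 to 6.51 CPM there. At this depth a count of 0 allows up to 0.239 CPM in the shallowest library.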
